A study of Mus musculus with 4 samples.

Results

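The genes described here encode the machinery that builds and pulls apart mitotic chromosomes: mitotic kinases, kinesin motors, centromere and kinetochore proteins, and the condensin and cohesin complexes. They were taken by name, as probes whose gene name starts with Cenp, Kif and a digit, Aurk, Bub1, Plk and a digit, Ncap or Smc and a digit, with Ndc80, Nuf2, Spc24, Spc25, Mad2l1, Incenp, Birc5, Cdca8, Ttk and Mki67 added. This gave 85 genes (161 probes) of the 28307 named on the array, of which 74 had a probe that in 1 population or both was well above background on every array. The name rule also takes kinesins that carry cargo or serve cilia, which are kept apart below.

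RNA came from sorted crypt cells of the normal adult mouse colon, from Lgr5-EGFP-ires-CreERT2 knock-in mice, in which the promoter of the stem cell receptor gene Lgr5 drives GFP. One population was sorted as GFP-positive (Lgr5-GFP), and the other with an antibody to CD24 at a high level (CD24hi), described by the submitters as a subset of goblet cells, the mucus-secreting cells. Total RNA of both was hybridised together to 4 2-colour arrays, with 2 arrays of opposite dye orientation, called the first array and the dye swap, for each of 2 replicates (n = 2). Every value below is the log2 ratio of the RNA labelled Lgr5-GFP over the RNA labelled CD24hi. Nothing in the labels ties a replicate to an animal, so the p-values cover the spread between these samples alone, and that spread may be technical.

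The sort genes ran against the labels. The log2 ratio of Lgr5 was -3.41 ± 0.29 (SD, n = 2) and that of Cd24a, which encodes CD24, was 2.12 ± 0.30, so "the RNA labelled Lgr5-GFP" is used throughout and each direction is that of the labels. Whether the labels of the populations were exchanged cannot be told from these arrays; if they were, every direction below turns. Goblet cell markers, which the design ties to the CD24hi population, also ran against the labels: toward the label Lgr5-GFP, 4 of 7 were higher and 0 were lower (limma, adjusted p under 0.05; at an unadjusted p under 0.05, 4 higher and 1 lower), with Muc2, the main secreted mucin, at 3.76 ± 0.58. Their summed signal was 588655 and 528690 in the RNA labelled Lgr5-GFP in replicates 1 and 2, against 89527 and 53440 in the RNA labelled CD24hi, and none of the 7 was missing. Muc2, Agr2 and Spink4 weigh most in the Lgr5-GFP sums (mean log2 signal 17.8, 17.7 and 16.2). Tff3 ran the other way (-0.95, not called), and Fcgbp and Zg16 (not called) changed sign between replicates. Of 6 epithelial markers 1 was lower, and of 17 T and B cell, myeloid, stromal and endothelial markers only 5 were measured, of which 1 was higher (Col1a2, 0.44). Over all 14808 genes tested, 25.8% were lower and 21.9% higher. Apart from the goblet cell markers, these counts were near or under those shares and are no result about the markers. The part of the marker differences in the results below was not tested.

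The dye swap of replicate 1 stood apart. The scanner software had marked 75.3% of its spots as outliers (0.231% to 0.399% on the others), and these were left out, so only 21 of the 74 genes had a value there. Its median signals were 4377 and 1358, against 94.2 to 197 on the other arrays, and its ratios correlated with theirs at 0.724 to 0.766 across genes, against 0.925 to 0.958 among the others. For the remaining 53 genes replicate 1 is its first array alone and is not dye-balanced. The scanner software also flagged nearly every spot of that dye swap as well above background. The shares were 99.8% (Lgr5-GFP label) and 99.6% (CD24hi label), against 41.2% to 62.7% on the other arrays. The background filter therefore rested on the other arrays.

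Cell division needs these proteins in sequence. Condensin compacts the chromosomes, the centromere proteins mark where the kinetochore forms, kinetochore and checkpoint proteins hold microtubules and delay separation until all are attached, and Aurora and polo-like kinases and mitotic kinesins drive spindle assembly, separation and cytokinesis. Most of their genes are transcribed as cells approach mitosis, and in the colon such cells lie in the lower crypt, where stem cells and their dividing progeny sit.

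Most of the machinery was lower in the RNA labelled Lgr5-GFP. Of 74 measured genes, 54 were lower (25.8% of all 14808 genes tested were), 4 were higher (21.9% of all genes tested) and 16 were not called (limma, Benjamini-Hochberg adjusted p under 0.05). Their median log2 ratio was -1.04, against -0.07 over all genes tested. In 35 genes both replicates were at least 2-fold lower (6.04% of all genes tested), and in 4 both were at least 2-fold higher (6.0% of all genes tested). The largest ratios were those of Birc5 (-3.18), Cenpe (-3.15) and Mki67 (-3.03). The filter kept 17 of the 54 lower genes only through the RNA labelled CD24hi, so the filter itself bears on their direction and counts that hold them are a description. Of 55 genes with probes above background in both populations, 37 were lower and 3 higher (27.4% of all genes passing that filter were lower).

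In bulk RNA, fewer cells of a type and less RNA per cell cannot be told apart.

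The calls depend on how the scanner data were treated, and the treatment was chosen with call counts known. Spots with a non-uniform local background, 77 on the first array of replicate 2, were left out before the background fit, and with them kept, 9 of the genes were lower and 1 higher (1086 calls among all genes). Giving marked spots full weight in the loess normalization, and leaving them out of the ranking of probes by brightness, left 52 lower and 4 higher (5565 calls among all genes). With non-uniform backgrounds kept and marked spots at full weight in loess, limma called 0 of the 74 genes and 0 of all 14808 (the lowest adjusted p was 0.0544, and 5175 genes had an unadjusted p under 0.05). Under each of these changes all 54 genes kept a negative ratio.

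**Figure D1:**
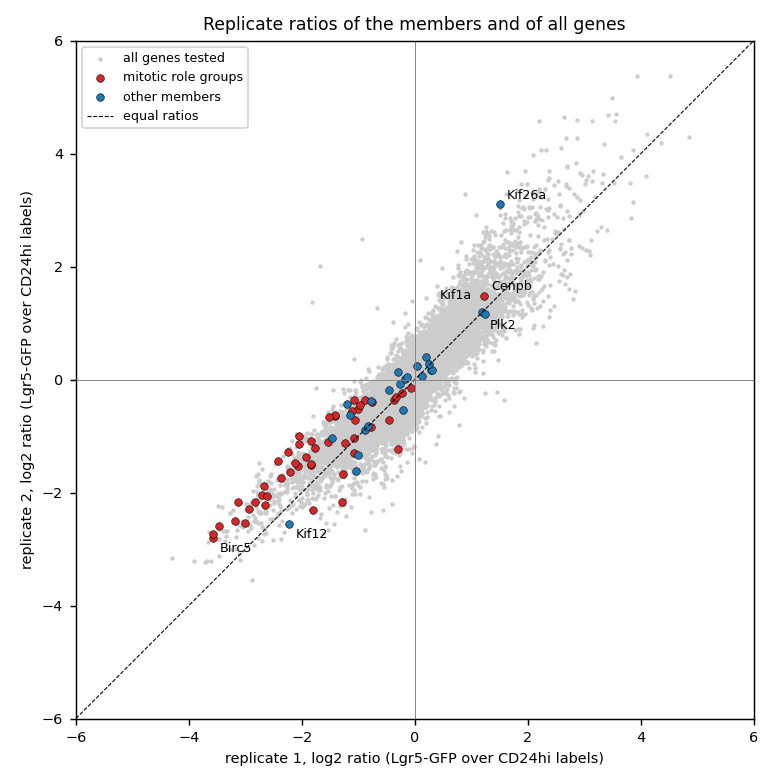
Log2 ratio in replicate 1 (x axis) against replicate 2 (y axis) for all genes tested (grey), the mitotic role groups (red) and the other genes of the name rule (blue), with the line of equal ratios dashed. Most red points lie at the lower left, and 4 coloured points (Kif26a, Cenpb, Kif1a and Plk2) lie above 1 in both replicates.

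The mitotic groups were counted apart from the other kinesins. In the mitotic role groups together (kinases, passenger subunits, kinetochore, inner centromere, mitotic kinesins, condensin and Mki67), 45 of 50 genes were lower, 1 was higher and 4 were not called, with a median of -1.50. Of the 45, 16 had passed the filter only through the RNA labelled CD24hi. Among genes above background in both, 29 of 34 were lower (27.4% of all genes passing that filter). Of 15 measured transport, ciliary and other kinesins, 3 were lower, 2 were higher and 10 were not called, with a median of -0.05. Over all genes tested, 25.8% were lower and 21.9% higher, with a median of -0.07. The counts of the other kinesins were near or under these shares and are no result about those genes. The same shares apply to the counts by role group below.

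Promoter sequence is shown because the genes moved together and because 2 short elements are known from promoters of mitotic genes: the cell cycle homology region (CHR, searched as TTTGAA or TTCGAA) and the CCAAT box bound by the factor NF-Y (searched as CCAAT), both on either strand and allowed to overlap. RefSeq windows (build GRCm38.p6), which run from 250 bases before the transcript start to 50 after it, were held for 66 of the 74 genes. Of all 66 measured genes with a window, 48.5% held a CHR match, 51.5% a CCAAT match and 34.9% both. Among the 13 with a window that were not called, these shares were 15.4%, 53.9% and 15.4%. Most of these 13 were transport, ciliary and other kinesins, so this contrast is also one between kinds of gene. Bub1 and Kif24, both not called, held both elements. Of the 40 mitotic role genes that were lower and had a window, 67.5% held a CHR match, 62.5% a CCAAT match and 50% both (20 genes). Among all 9890 tested genes with a window these shares were 16.7%, 42.9% and 6.96%, and 19.2%, 37.4% and 7.53% of all 32851 RefSeq windows held them. Of 13 other kinesins with a window, 3 held a CHR match and 5 a CCAAT match. Among the 4 genes that were higher, 1 (Kif1a) held a CHR match and 0 a CCAAT match. A match is a description of these letters and not a site in use. Some of the 40 lower mitotic role genes, such as Ttk, Cenpa and Kif11, had passed the filter only through the RNA labelled CD24hi. The shares among those 40 are therefore a description too.

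The stretches below run from 150 bases before the start to 25 after it, with matches in capitals, and are those of the 5 lower genes with both elements and the largest ratios among genes with 1 window: Mki67 (chr7:135716355-135716529, minus strand), Ncapg (chr5:45669775-45669949, plus strand), Kif22 (chr7:127042396-127042570, minus strand), Cenpf (chr1:189688062-189688236, minus strand) and Cdca8 (chr4:124936893-124937067, minus strand).
Mki67: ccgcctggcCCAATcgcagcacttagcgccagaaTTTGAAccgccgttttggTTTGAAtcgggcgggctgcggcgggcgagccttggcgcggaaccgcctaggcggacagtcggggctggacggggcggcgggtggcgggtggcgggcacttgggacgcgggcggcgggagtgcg
Ncapg: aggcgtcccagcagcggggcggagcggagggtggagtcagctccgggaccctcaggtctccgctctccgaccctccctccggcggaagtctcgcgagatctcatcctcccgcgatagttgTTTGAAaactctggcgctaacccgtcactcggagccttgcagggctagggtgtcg
Kif22: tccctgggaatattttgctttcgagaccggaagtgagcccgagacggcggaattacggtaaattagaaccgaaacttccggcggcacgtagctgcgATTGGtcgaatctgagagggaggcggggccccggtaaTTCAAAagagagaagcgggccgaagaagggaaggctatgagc
Cenpf: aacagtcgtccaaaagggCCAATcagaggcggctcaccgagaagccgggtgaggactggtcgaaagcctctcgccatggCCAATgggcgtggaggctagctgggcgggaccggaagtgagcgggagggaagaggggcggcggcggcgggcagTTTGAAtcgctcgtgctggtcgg
Cdca8: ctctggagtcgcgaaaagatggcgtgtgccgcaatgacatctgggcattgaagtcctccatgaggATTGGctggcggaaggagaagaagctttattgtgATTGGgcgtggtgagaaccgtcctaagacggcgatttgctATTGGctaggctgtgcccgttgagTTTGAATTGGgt

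In Mki67 a pair of CHR matches begins at positions -116 and -98 from the start. Ncapg has its CHR match at -30, and its CCAAT match, at -176, lies outside the stretch. Kif22 carries a CCAAT match at -54 and a CHR match at -17, both on the minus strand. Its further matches, CCAAT at -233 and CHR at -215, lie outside the stretch. In Cenpf the CCAAT matches begin at -132 and -71 and the CHR match at base 3 of the transcript. Cdca8 has 4 CCAAT matches, the last of which overlaps the CHR match that begins at base 14.

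Birc5 (chr11:117849087-117849261, plus strand), with the largest ratio of all, held neither element in its window, and the same was true of Kif26a (chr12:112146058-112146232, plus strand) and Cenpb (chr2:131180043-131180217, minus strand), the genes with the largest ratios in the other direction. They are shown for contrast.
Birc5: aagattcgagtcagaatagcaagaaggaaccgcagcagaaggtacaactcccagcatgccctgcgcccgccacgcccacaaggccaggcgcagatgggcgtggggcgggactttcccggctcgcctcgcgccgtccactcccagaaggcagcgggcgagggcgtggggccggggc
Kif26a: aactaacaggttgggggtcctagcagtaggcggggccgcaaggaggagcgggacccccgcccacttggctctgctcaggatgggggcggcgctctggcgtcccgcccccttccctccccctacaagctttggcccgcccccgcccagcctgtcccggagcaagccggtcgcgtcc
Cenpb: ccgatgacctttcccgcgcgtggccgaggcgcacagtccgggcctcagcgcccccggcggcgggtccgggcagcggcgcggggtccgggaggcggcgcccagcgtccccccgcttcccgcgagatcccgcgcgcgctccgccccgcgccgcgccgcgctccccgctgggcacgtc

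**Figure D2:**
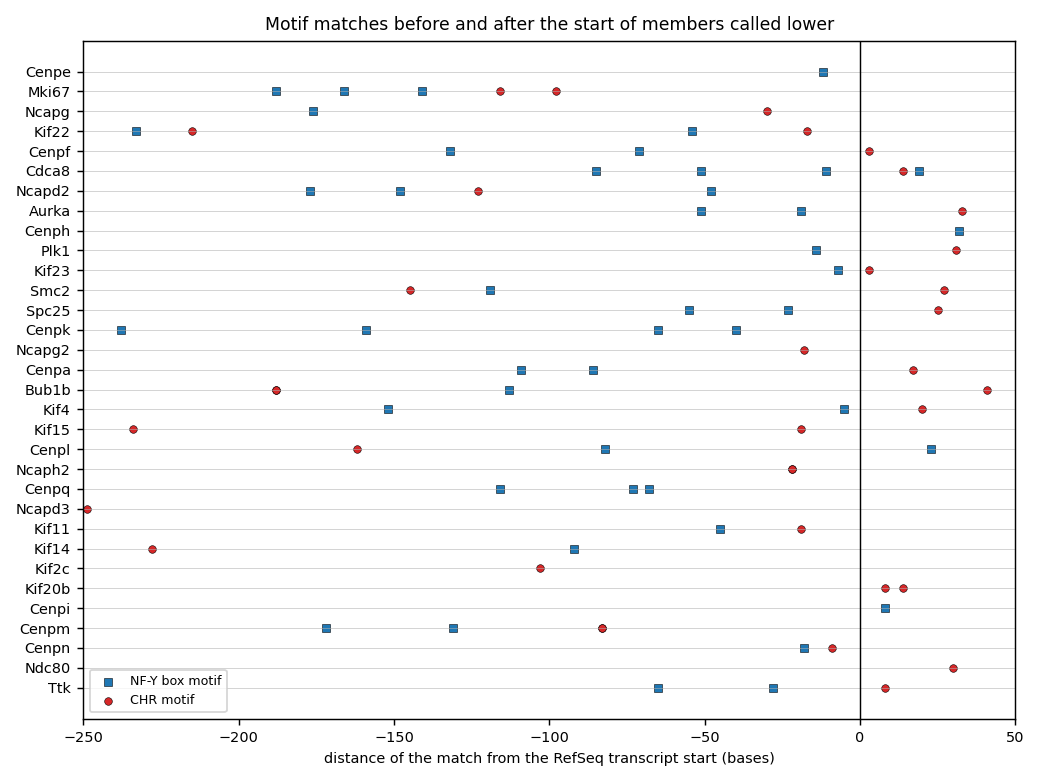
Position of each CHR motif match (red circles) and NF-Y box motif match (blue squares, searched as CCAAT) relative to the RefSeq transcript start in bases (x axis, 0 is the start), for the lower mitotic role genes with at least 1 match, ordered from the most negative ratio at the top. Matches lie on both sides of the start, and 20 genes show both kinds.

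Among the 8 mitotic kinases, 6 were lower and 0 higher (at an unadjusted p under 0.05, 7 lower and 0 higher), with a median of -1.05. Aurkb, Plk4 and Ttk passed the filter only through the RNA labelled CD24hi. Aurka, the Aurora kinase of centrosomes and spindle poles, had log2 ratios of -2.70 in replicate 1 (its first array) and of -2.12 and -1.98 in replicate 2 (first array, then dye swap). All 3 values lie on the low side, and the mean was -2.37 ± 0.46 (limma, adjusted p = 0.000657), a 5.18-fold difference. For Plk1, the polo-like kinase that drives mitotic entry and exit, the same arrays gave -2.66, -1.93 and -1.84, with a mean of -2.28 ± 0.55 (limma, adjusted p = 0.000890). Aurkb, the catalytic subunit of the chromosomal passenger complex, had a value on all 4 arrays: -2.36 and -2.50 in replicate 1 and -1.55 and -1.34 in replicate 2. Its replicates did not overlap, both were low, and the mean was -1.94 ± 0.69.

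The checkpoint kinase relatives were lower by less. Bub1b, the checkpoint protein BubR1, had -1.77, -1.09 and -1.31 on its 3 arrays (mean -1.49 ± 0.40). Plk4, which starts centriole duplication, had -0.62 ± 0.37, and Ttk, the checkpoint kinase Mps1, -0.58 ± 0.25. In the RNA labelled Lgr5-GFP, Ttk was well above background on no array with a value. With its signal there raised to the lowest signal above background, Ttk was 1.46-fold lower as a mean. Its smallest fold on an array was 1.16, so the mean is no minimum.

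Bub1, a checkpoint kinase at the kinetochore, depended on its probe. Its brighter probe gave -0.37 ± 0.01 and was not called (limma, adjusted p = 0.0507), while the other kept probe gave -1.83, and in a fit over all kept probes both were called. Aurkc, the Aurora kinase known from germ cells, had -0.23 and was not called. Of the other polo-like kinases, Plk3, a stress-response kinase, was lower at -1.33 ± 0.41. It had -1.04 on both arrays of replicate 1 and -1.54 and -1.70 in replicate 2. Plk2, also a stress-response and neuronal kinase, was higher at 1.19 ± 0.01, with 1.18, 0.96 and 1.44 on its 3 arrays. The ratio of Aurkaip1, which encodes an Aurora A-interacting protein, was 0.30 ± 0.14 and was not called.

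All 3 other subunits of the chromosomal passenger complex, which corrects faulty attachments and guides cytokinesis, were lower, with a median of -2.61. Birc5, which encodes survivin (probe at chr11:117716959-117717018, build mm9), had -3.56 in replicate 1 and -2.93 and -2.67 in replicate 2. Every array with a value was far below 0, and the mean was -3.18 ± 0.54 (9.08-fold; limma, adjusted p = 0.000512). Cdca8, which encodes borealin, had -2.61 ± 0.45 (its other kept probe gave -1.29), and Incenp, the scaffold of the complex, -2.50 ± 0.47. With Aurkb at -1.94, the 4 genes of the complex spanned -3.18 to -1.94.

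The outer kinetochore and spindle checkpoint genes were lower in 7 of 7 cases, with a median of -1.79, and Ndc80 had passed the filter only through the RNA labelled CD24hi. Cenpe, the kinetochore-bound kinesin that moves chromosomes to the spindle equator, had -3.57, -2.79 and -2.67 on its 3 arrays (mean -3.15 ± 0.60, 8.87-fold). Its 3 kept probes were all called lower but ranged from -3.15 to -0.66. Cenpf, a large kinetochore protein of late G2 and mitosis, had -2.64 ± 0.68.

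The NDC80 complex, which binds the microtubule, was measured for all its subunits. Spc24 had -2.27 and -2.47 in replicate 1 and -1.69 and -1.79 in replicate 2 (mean -2.05 ± 0.44), and Spc25 had a mean of -1.76 ± 0.68. Nuf2 followed at -1.68 ± 0.23, with all 4 arrays between -2.19 and -1.24. Ndc80 itself had the smallest difference, -0.59 ± 0.18 (limma, adjusted p = 0.0154): its values were -1.34, -0.81 and -0.63 on 3 arrays and 0.43 on the dye swap of replicate 1, so its arrays did not share 1 direction. Mad2l1, the checkpoint protein MAD2, had -1.79 ± 0.38.

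The inner centromere genes were less uniform: 10 of 13 were lower, 1 was higher and 2 were not called, with a median of -0.77. Of the 10, Cenpa, Cenpi, Cenpm and Cenpn had passed the filter only through the RNA labelled CD24hi. Cenpa, the histone H3 variant that defines the centromere, had -2.04, -0.75 and -1.24 on its 3 arrays (mean -1.52 ± 0.74), and its replicates differed more than those of its neighbours in this group, Cenpk (-1.65 ± 0.40) and Cenpl (-1.32 ± 0.30). Cenph had the largest difference, -2.34 ± 0.40, with -2.62, -1.83 and -2.29. Cenph, Cenpk and Cenpl encode parts of the constitutive centromere-associated network, as do Cenpp (-1.73 ± 0.62) and Cenpq (-1.17 ± 0.09).

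For Cenpp and Cenpi the dye swap of replicate 1 was opposed to the other arrays. Cenpp had 0.08 there, against -2.67, -1.86 and -2.47, and Cenpi had 0.73 there, against -1.34, -1.17 and -1.29. Cenpm (-0.76), Cenpn (-0.73) and Cenpt (-0.72) were lower by similar amounts. Cenpc1, the homologue of the CENP-C protein that links the inner to the outer layer, had -0.32 ± 0.02 (limma, adjusted p = 0.0772), and Cenpo had -0.11 ± 0.06.

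Cenpb stood on the other side. This gene encodes a protein that binds a DNA box in centromeric repeats and is not needed for division, and its ratios were 1.23, 1.85 and 1.11, with a mean of 1.35 ± 0.18 (probe at chr2:131003863-131003922, build mm9; limma, adjusted p = 0.00111). No array value of Cenpb overlapped those of any other inner centromere gene. Of 2 further genes with a CENP name, Cenpv was lower at -0.89 ± 0.36, and Cenpj, a centriole protein, had -0.07.

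**Figure D3:**
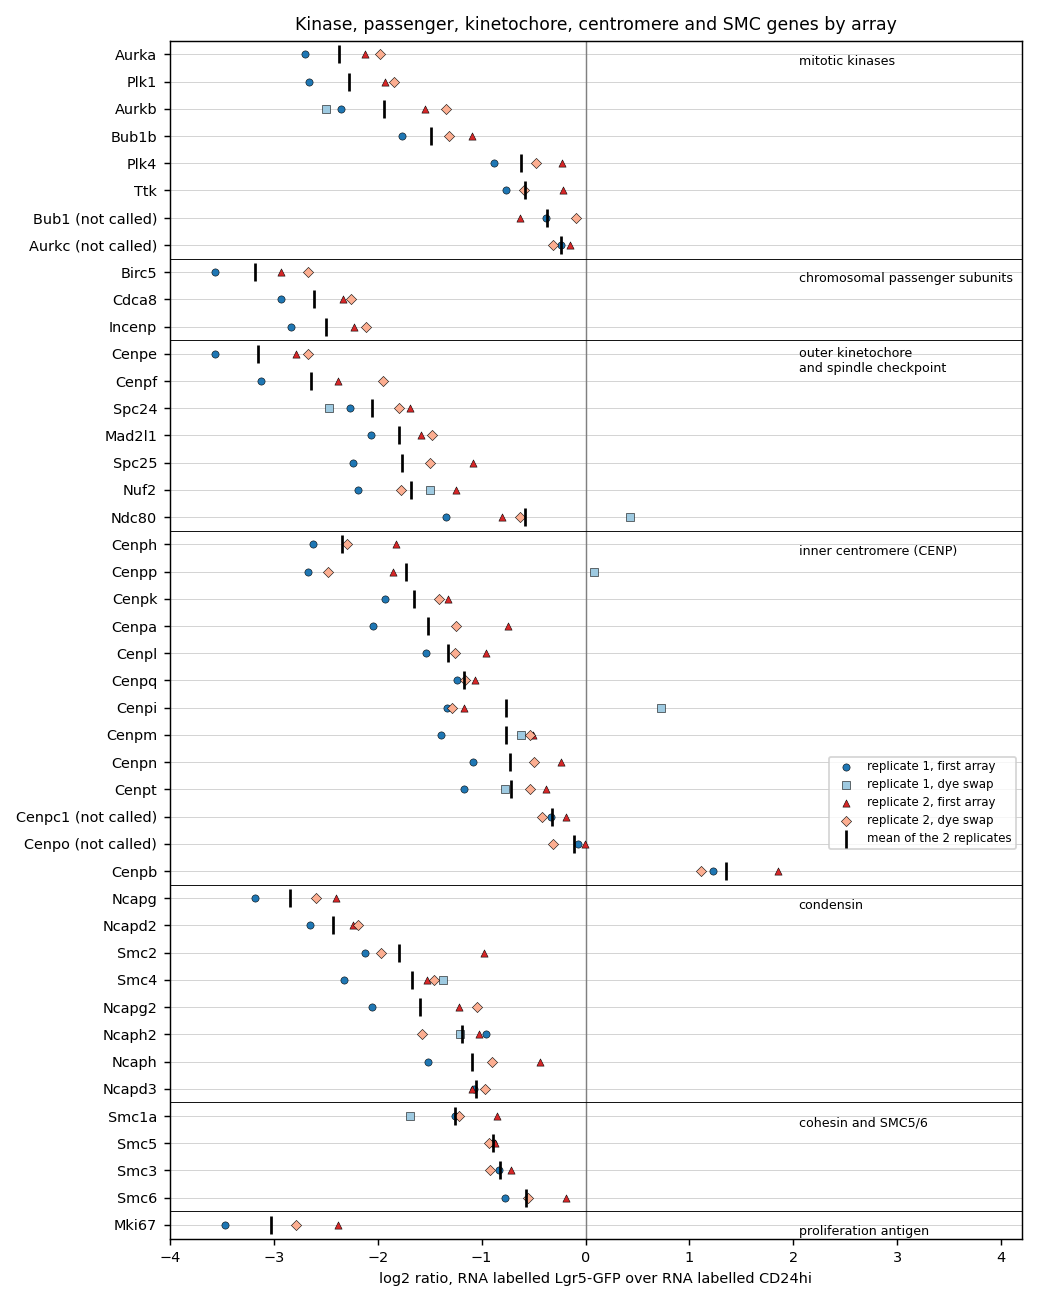
Log2 ratio (x axis) of each kinase, passenger, kinetochore, centromere, condensin, cohesin and SMC5/6 gene and of Mki67 (rows), on each array with a value (symbols), with the mean of the 2 replicates as a black bar and genes that were not called marked. Nearly all symbols lie below 0, Cenpb lies above 0 on its 3 arrays, and the dye swap of replicate 1 lies above 0 for Ndc80, Cenpp and Cenpi.

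Condensin was lower in 8 of 8 genes, with a median of -1.63, and Smc2 and Ncaph had passed the filter only through the RNA labelled CD24hi. The core subunits shared by both condensins, Smc2 and Smc4, had -1.80 ± 0.46 and -1.67 ± 0.25. Of the subunits of condensin I, which reaches the chromosomes after the nuclear envelope opens, Ncapg had -3.18, -2.41 and -2.60 (mean -2.84 ± 0.48, 7.17-fold), Ncapd2 had -2.66, -2.24 and -2.19 (mean -2.43 ± 0.31), and Ncaph had -1.51, -0.44 and -0.90 (mean -1.09 ± 0.60).

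Those of condensin II, which is nuclear throughout the cycle, had -1.59 ± 0.65 (Ncapg2), -1.19 ± 0.15 (Ncaph2) and -1.05 ± 0.03 (Ncapd3). The medians were -2.43 for condensin I and -1.19 for condensin II, but Ncaph lay within the range of condensin II, and the difference between the complexes was not tested. Probes mattered here too: the 2 kept probes of Ncapg gave -2.84 and -1.09, the 3 of Ncapd2 ran from -2.43 to -1.19, and those of Ncaph2 gave -1.19 (called) and 0.28 (not called).

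Cohesin, which holds sister chromatids together, and the related SMC5/6 complex of DNA repair were lower in 4 of 4 measured genes, with a median of -0.86. Smc1a had -1.25 and -1.69 in replicate 1 and -0.86 and -1.22 in replicate 2 (mean -1.25 ± 0.31). Smc5 (-0.89 ± 0.01) and Smc3 (-0.82 ± 0.01) were close to each other, and Smc6 had -0.58 ± 0.29. A further kept probe was not called for Smc1a (-0.18), Smc3 (0.01) and Smc6 (-0.28). Smc1b, the meiotic cohesin subunit, was not measured.

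Mki67, the proliferation antigen Ki-67 that coats mitotic chromosomes, had -3.47 in replicate 1 and -2.38 and -2.78 in replicate 2. The mean was -3.03 ± 0.62 (8.14-fold; limma, adjusted p = 0.000608), and its other kept probe gave -2.29.

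Of 10 mitotic kinesins 10 were lower, with a median of -1.25, but 6 of them (Kif15, Kif11, Kif18a, Kif14, Kif2c and Kif20b) had passed the filter only through the RNA labelled CD24hi. With signal above background in both populations 4 remained, and these 4 were lower. Kif22, a motor that pushes chromosome arms toward the equator, had -3.01, -2.54 and -2.55 (mean -2.78 ± 0.33, 6.86-fold; limma, adjusted p = 0.000475). Kif23, a motor of the central spindle in cytokinesis, had -1.92 ± 0.40, and Kif15 and Kif11, which slide spindle microtubules apart, had -1.47 ± 0.53 and -1.03 ± 0.55. All of these arrays were below 0. In the RNA labelled Lgr5-GFP, Kif15 and Kif11 were well above background on 1 of 3 arrays, and their ratios were -3.51 and -2.67 from the processed signals and -3.38 and -2.56 from the series table.

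The dye swap of replicate 1 carried values for 3 mitotic kinesins and was highest in each. Kif20a, a motor of cytokinesis, had -0.52 there against -3.08, -2.37 and -2.26 (mean -2.06 ± 0.36). Kif4, a chromosome-bound motor, had 0.13 there against -2.68, -1.51 and -1.83, and Kif20b had 0.25 against -1.79, -0.68 and -0.99. Kif18a, which damps chromosome oscillations, and Kif14, a motor of cytokinesis, stayed near background in the RNA labelled Lgr5-GFP. Neither was well above it there on any array with a value. With signals there raised to the lowest signal above background, they were 1.85-fold and 1.81-fold lower as means. Their smallest folds on an array were 1.31 and 1.51. Kif2c, a microtubule depolymerase at the centromere, had -0.84 ± 0.39.

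Among the other kinesins most ratios were small. Kif5b, the conventional motor for cargo, had -0.05 ± 0.14, Kif3a and Kif3b, the motor of cilia, 0.15 and 0.24, and Kif1b 0.26, and none was called. Kif1c (-0.32) and Kif21b (0.10) were also not called. The brightest probe of Kif5b was not called, while its other kept probe was called higher at 0.47, as were second probes of Kif21b (0.43) and Kif13a (0.39).

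Kif12, Kif2a and Kif26b were the kinesins of this group that were lower. Kif12 had -2.62, -1.85, -2.37 and -2.75 on the 4 arrays, all far below 0 (mean -2.40 ± 0.23, probe at chr4:62826711-62826770, build mm9). Kif2a, a microtubule depolymerase of neurons and spindles, had -1.17 ± 0.23. Kif26b was also well above background on no array with a value in the RNA labelled Lgr5-GFP. With its signal there raised to the lowest signal above background, it was 1.59-fold lower as a mean. Its smallest fold on an array was 1.31.

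Kif26a and Kif1a were higher. Kif26a, an atypical kinesin that lacks motor activity, had 2.37 and 0.64 in replicate 1 and 3.05 and 3.15 in replicate 2 (mean 2.30 ± 1.13; limma, adjusted p = 0.00422). Every array was above 0, but its other kept probe gave 0.08 and was not called. Kif1a, a motor for synaptic vesicles, had 1.25, 0.86 and 1.48 (mean 1.21 ± 0.06) and in the RNA labelled CD24hi only 1 of 3 arrays had it well above background. The 10 unmeasured kinesins were Kif13b, Kif17, Kif27, Kif2b, Kif3c, Kif5a, Kif5c, Kif6, Kif7 and Kif9.

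**Figure D4:**
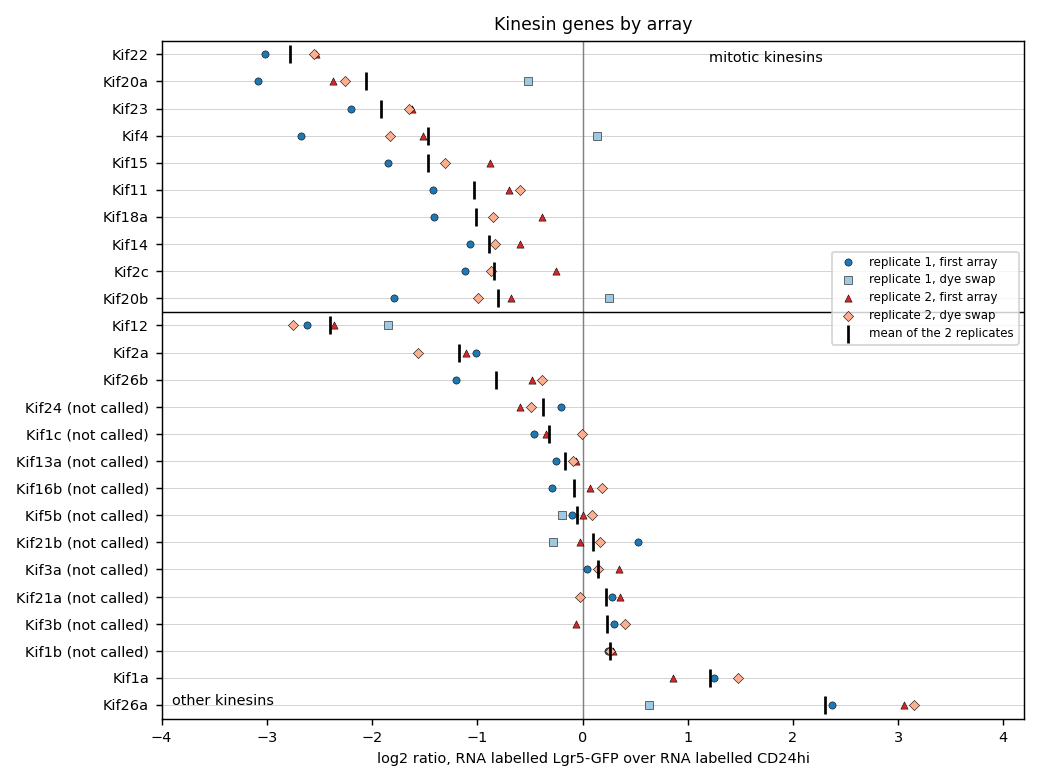
Log2 ratio (x axis) of each measured kinesin gene (rows) on each array with a value (symbols), with the mean of the 2 replicates as a black bar, mitotic kinesins above the line and other kinesins below it. The 10 mitotic kinesins have means from -2.78 to -0.80, and those of the other 15 run from -2.40 to 2.30.

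Replicates differed in size more than in direction. Of the 54 lower genes, 43 (79.6%) had the lower ratio in replicate 1, against 60.5% of all 3820 lower genes, and the median over the mitotic role groups was -1.79 in replicate 1 and -1.26 in replicate 2. Replicate 1 rests on its first array alone for 37 of these 50 genes, and the part of its dye balance was not tested. Of all 58 called genes, 53 had 1 direction on every array with a value, the exceptions being Ndc80, Cenpp, Cenpi, Kif4 and Kif20b, each turned on the dye swap of replicate 1. Without that array 57 genes were lower and 5 higher. Without the first array of replicate 1, 28 genes could be tested, of which 13 were lower and 1 higher.

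Sizes depended on which deposited values were used. The median over the 74 genes was -0.86 with no background subtraction, -2.06 from the processed signals of the scanner software and -1.93 from the deposited series table, and over all genes it was -0.05, -0.29 and -0.17. Of the 54 lower genes, 25 had a log2 ratio over 1.5 times larger from the processed signals, the 17 that passed the filter only through the RNA labelled CD24hi among them.

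**Figure D5:**
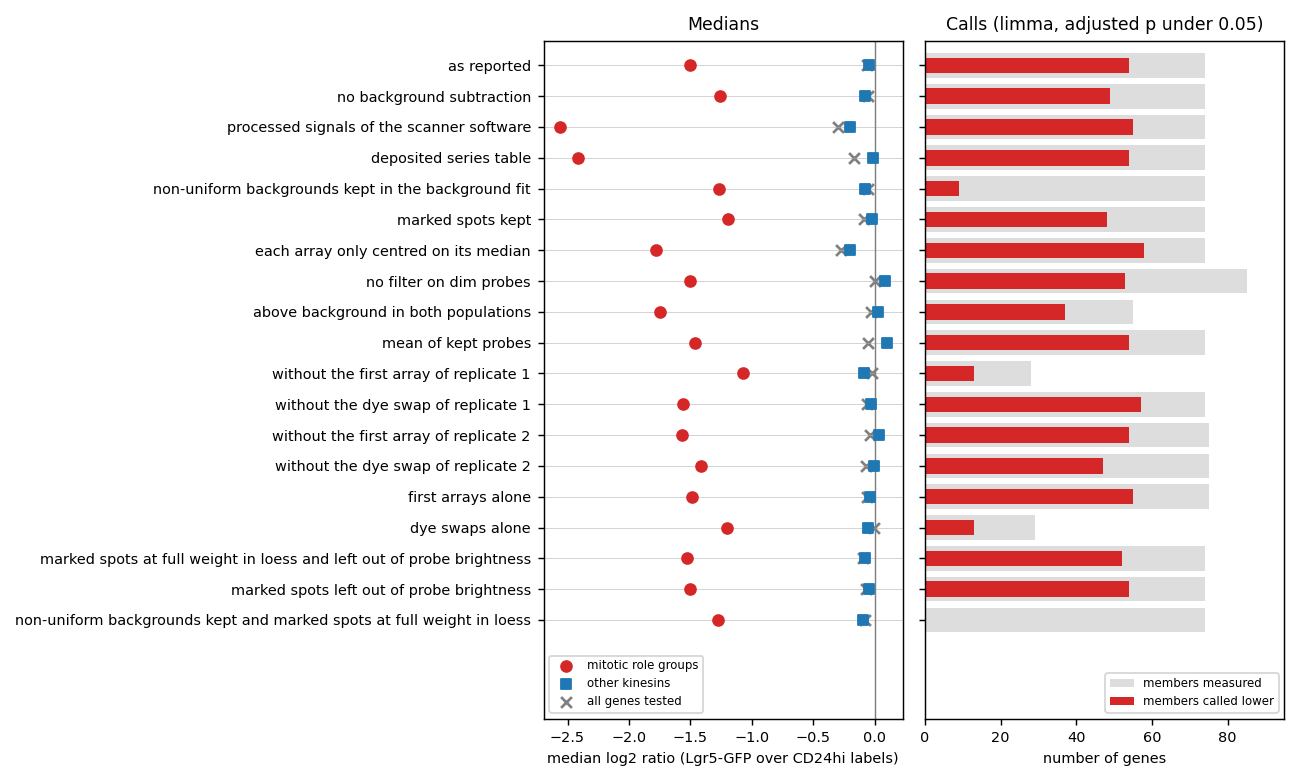
Left, median log2 ratio (x axis) of the mitotic role groups (circles), the other kinesins (squares) and all genes tested (crosses) for the reported fit and each alternative processing (rows); right, number of genes of the name rule that were measured (grey bars) and lower (red bars). The circles stay below -1 in every row, while the red bars fall to 9 and to 0 in the rows that keep the non-uniform backgrounds, and to 13 where replicate 1 has no first array.

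Other genes of the mitotic programme, listed by function outside the name rule, were mostly lower as well. Of 74 measured, 66 were lower and 0 higher (limma; at an unadjusted p under 0.05, 69 lower and 0 higher), with a median of -1.32. Of all genes tested, 25.8% were lower and 21.9% higher. Some of the 66, such as Cep55 and Aspm, had passed the filter only through the RNA labelled CD24hi. The kinase gene Pbk had -2.84 ± 0.41, Cdc20, the activator of the anaphase-promoting complex, -2.83 ± 0.83, and the cyclins Ccna2 and Ccnb2 -2.77 ± 0.65 and -2.70 ± 0.36.

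Of 18 measured regulators of mitotic transcription, 13 were lower and 1 was higher (25.8% and 21.9% of all genes tested), with a median of -1.05. Foxm1, a forkhead factor that drives late cell cycle genes, had -1.91 in replicate 1 and -1.45 and -1.70 in replicate 2 (mean -1.74 ± 0.24). E2f3 had -1.53 ± 0.11, the repressor E2f7 -1.51 ± 0.61, and Lin9, a subunit of the MuvB core complex that binds the CHR, -1.30 ± 0.12. The other MuvB subunits measured differed less: Lin54 was lower at -0.50 ± 0.31, and Lin37 (-0.18) and Lin52 (0.10) were not called. E2f7 and E2f8 had passed the filter only through the RNA labelled CD24hi, and E2f7 ran from -3.37 to -1.08 over the alternatives. Rb1, the retinoblastoma protein that restrains E2F factors, was higher at 0.57 ± 0.29 (limma, adjusted p = 0.0246). Its result was weaker in 9 of 20 alternatives (limma, adjusted p up to 0.585). On the dye swap of replicate 1 its ratio was 0.02.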

How the data were processed

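RNA of both sorted populations was read from 4 2-colour Agilent arrays. Per the file headers, Feature Extraction 10.5.1.1 gave the deposited intensity of each spot and its local background, and a deposited log10 ratio of red over green. The deposited series table held log2 ratios of red over green, which a comparison with the log10 ratios showed (r of 0.923 to 0.986). Medians of its columns were -0.0034, 0.032, -0.0033 and -0.014, dye swaps had not been turned, and how it was normalized is not known here. Probe positions are those of build mm9, per the file headers.

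Intensities were corrected with normexp (offset 50) and global loess in limma 3.58.1 (R 4.3.3), dye swaps were turned, and both arrays of a replicate were averaged to 1 ratio. Limma tested the 2 ratios against 0 (2-sided, Benjamini-Hochberg over 14808 genes, adjusted p under 0.05). A gene was shown by its brightest probe among those that in 1 population or both were well above background on 4 of 4 arrays by the scanner software's flag, which was read for marked spots too. On the dye swap of replicate 1 nearly every spot held that flag. Genes were named by RefSeq accession where it matched (80 of the 85). The test was run on simulated data, where its power depended on how many genes changed and on how their spread was drawn. With few genes changed and spreads taken from the sample SDs, it did not recover the changed genes. The number of arrays limits the precision.

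The genes, lists, tests and alternatives were chosen with earlier results of these data known. That holds for leaving out spots with non-uniform backgrounds. In addition, 3 versions of the fit were run and their call counts seen before the last was kept. With marked spots at full weight in loess and left out of the ranking of probes by brightness, 5565 genes were called. With them at weight 0 and still left out of that ranking, 6986 were called. The version kept, with weight 0 and brightness over all arrays, called 7068. The first was changed after its values had been seen to differ from an earlier account of these data, and the second because probes had been ranked over unlike sets of arrays. Neither detail had been fixed in the design. All versions are given among the alternatives, and named genes follow a rule on size, call and signal within each role group, with some further members given by value. Protein sequences were not used here.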

Additional observations from a re-analysis of the deposited data

Results flagged for a closer look

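A Dixon test over the 4 arrays, which share RNA in pairs, singled out the dye swap of replicate 1 for its median signal of the RNA labelled Lgr5-GFP (4377), that of the RNA labelled CD24hi (1358) and its share of marked spots (75.3%). Chance alone singles out about 1 in 20 groups, and 21 genes with a value on all 4 arrays were examined. On that dye swap, Aurkaip1 had a log2 ratio of -0.028 and Cenpi one of 0.73, each far above or below its other arrays. On the first array of replicate 1, Cenpm had -1.39 and Smc4 -2.32, each below its other arrays. No explanation of these values was tested.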

How the results depend on the processing

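All 54 lower genes kept a negative ratio wherever they were measured, under each alternative run, while the number called did not hold. With the non-uniform backgrounds kept in the background fit, 9 genes were lower and 1 higher, with 3 mitotic kinesins, 6 genes of the mitotic role groups and 3 other mitotic genes lower (median over all measured genes -0.88). With marked spots also at full weight in loess, an alternative chosen after seeing the data, each of these counts was 0 (median -0.88). Only dye swaps gave 13 lower, 1 higher, 2 mitotic kinesins, 10 of the mitotic role groups and 7 other mitotic genes (median -0.81). Leaving out 1 array or replicate at a time gave 13 to 57 lower genes, 1 to 5 higher, 2 to 10 mitotic kinesins, 10 to 47 of the mitotic role groups, 7 to 69 other mitotic genes and medians of -1.13 to -0.86. With probes required well above background in each of the populations, 55 genes were left, and 37 of 37 lower genes still measured kept their call: 4 of 4 mitotic kinesins and 29 of 34 in the mitotic role groups were lower (median -1.25), so these counts fell because genes were removed. The median was -0.86 with no background subtraction, -2.06 with processed signals, -1.93 with the series table, -1.30 with arrays only centred and -0.84 with no filter on dim probes.

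Small values near 0 turned. Kif21b was -0.10 with processed signals, -0.0025 with the series table, -0.17 with arrays only centred, -0.058 on dye swaps alone (where Kif1c was 0.22) and -0.11 to 0.30 with 1 array or replicate left out. Kif5b was 0.21 with the mean of kept probes. The median of the other kinesins was 0.084 with no filter, 0.025 with each population above background, 0.098 with the mean of kept probes and -0.14 to 0.071 with 1 array or replicate left out. That of the group of other polo-like kinases and Aurkaip1 was -0.59 on dye swaps alone and -0.57 to 0.41 with 1 array or replicate left out. Apart from the constructions named (fewer spots, arrays or genes), the cause was not tested. Leaving out a replicate left 1 ratio, so it gave values and no calls. For Ttk, Kif18a, Kif14 and Kif26b the signal in the RNA labelled Lgr5-GFP was near background, and their folds with that signal raised are no minimum.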
